A study of Homo sapiens with 30 samples.

Results

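The genes described here encode 10 subunits of the Polycomb repressive complexes, measured by RNA-seq in naive and primed H9 human embryonic stem cells. They are the rows of each library's count table that carry the symbols EZH1, EZH2, EED, SUZ12, JARID2, RING1, RNF2, PCGF3, PCGF5 and PCGF6, which is 10 of 28307 genes. The choice was made with earlier results of these data known. The study asked how XIST, XACT and the XIST partner SPEN act on X-linked expression in naive cells. Polycomb subunits bear on that question because XIST RNA can bring Polycomb complexes to the chromosome it coats.

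Polycomb repressive complex 2 (PRC2) places methyl groups on lysine 27 of histone H3 through EZH1 or EZH2, held in an active form by EED and SUZ12. JARID2 is an accessory subunit that helps PRC2 to reach chromatin. Polycomb repressive complex 1 (PRC1) attaches ubiquitin to histone H2A through RING1 or RNF2, which pair with a single PCGF protein that defines the type of PRC1. PCGF3 and PCGF5 form the variant PRC1 that has been tied to XIST through the RNA-binding protein HNRNPK, and PCGF6 forms another variant PRC1 with MGA and MAX on germ-line genes. In pluripotent cells both complexes are known for holding developmental genes, the HOX clusters among them, in a silent state that can be reversed.

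There were 30 libraries in 10 groups of 3. All came from H9, an established human embryonic stem cell line. Primed WT cells were grown on Matrigel in mTeSR1. NaiveCult WT cells and XACT KO cells, which carry a deletion over the XACT start sites in 3 clones, were kept in the naive medium NaiveCult on mouse feeder cells. The other 7 groups were naive cells in PXGL medium on mouse feeders. These were PXGL WT, XIST KO (3 technical replicates of 1 homozygous clone), CRISPRi UT and CRISPRi Dox, and cells given small interfering RNAs named siScr, siSPEN1 and siSPEN2. CRISPRi UT and CRISPRi Dox were 3 clones that carry doxycycline-inducible dCas9-KRAB, a repressor directed to the XIST promoter by a guide RNA. They were left untreated or treated with doxycycline, and no doxycycline-treated group without the guide entered the comparisons. siScr was a control siRNA, and siSPEN1 and siSPEN2 were different mixes against SPEN, an RNA-binding repressor that XIST needs for silencing. Libraries held 31.2 to 65.6 M counted reads (M, 1000000). Levels are given in CPM, the counts of a gene per 1000000 counts of its library. Fold changes and adjusted p-values come from edgeR's quasi-likelihood test on counts scaled by TMM factors, and a member "passed" at an adjusted p under 0.05 over all genes tested. The Benjamini-Hochberg method was used for adjustment, and errors are the SE of a log2 fold change or the SD of 3 libraries.

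Checked against markers, the state labels held: 7 naive genes summed to 26.2 to 31.9 CPM in Primed WT and 2150 to 3270 CPM in the naive groups, and 6 primed genes to 4730 to 5070 CPM and 81.6 to 175 CPM, respectively. Trophoblast markers stood at 328 to 505 CPM over 6 genes in NaiveCult WT and XACT KO, against 10.3 to 34.3 CPM elsewhere. Of the 6, all had a mean of at least 1 CPM in those groups, and their part in the differences between NaiveCult and PXGL cells was not tested. The 6 fibroblast markers, which feeder cells or differentiating cells would carry, reached 57.7 to 63.5 CPM in Primed WT, 4.97 to 28.2 CPM in NaiveCult WT and XACT KO and at most 6.24 CPM in PXGL groups. The 5 hypoblast markers lay between 1.99 and 52.8 CPM. The deposited library identifiers carry 3 prefixes, 1 on Primed WT, NaiveCult WT and XACT KO, 1 on the siRNA groups and 1 on the other PXGL groups. The sources used here do not say what the prefixes mark, and where PXGL WT is compared with Primed WT or NaiveCult WT, medium and prefix cannot be told apart. In bulk RNA, fewer cells of a type and less RNA per cell cannot be told apart either.

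The promoters of 3 members are printed here because these genes part ways in the comparisons that follow. SUZ12 and EED are partners in the PRC2 core that moved in opposite directions between PXGL and primed cells, and EED and PCGF6 were both lower in PXGL than in NaiveCult medium. The 250 bases before the start of each gene are from RefSeq (GRCh38.p14) and read 5′ to 3′ along the gene. SUZ12 lies at chr17:31936757-31937006 (plus strand), EED at chr11:86244503-86244752 (plus) and PCGF6 at chr10:103351141-103351390 (minus). Capitals mark the GC box GGGCGG and the E2F-type letters TTTCCCGC, TTTGGCGC or TTTCGCGC, searched on both strands; the E-box CACGTG was searched too.
SUZ12: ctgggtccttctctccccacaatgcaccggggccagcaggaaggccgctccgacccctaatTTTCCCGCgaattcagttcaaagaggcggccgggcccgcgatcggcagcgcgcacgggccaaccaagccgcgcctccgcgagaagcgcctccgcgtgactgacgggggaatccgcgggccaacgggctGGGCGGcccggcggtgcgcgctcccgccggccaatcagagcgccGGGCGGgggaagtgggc
EED: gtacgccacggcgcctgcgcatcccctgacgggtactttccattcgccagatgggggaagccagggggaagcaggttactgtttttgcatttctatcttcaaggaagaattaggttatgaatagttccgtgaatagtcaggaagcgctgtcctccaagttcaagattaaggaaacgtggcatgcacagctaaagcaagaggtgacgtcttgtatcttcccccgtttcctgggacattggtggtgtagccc
PCGF6: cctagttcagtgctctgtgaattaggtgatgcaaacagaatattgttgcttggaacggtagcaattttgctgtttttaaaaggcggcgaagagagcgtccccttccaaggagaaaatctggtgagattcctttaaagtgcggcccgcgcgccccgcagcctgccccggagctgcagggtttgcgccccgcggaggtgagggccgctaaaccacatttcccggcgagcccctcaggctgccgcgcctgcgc
The SUZ12 window held 2 GC boxes and 1 E2F-type match, and the other windows held none of these letters. A GC box was in 42.6% of 35116 RefSeq promoter windows of this length, an E2F-type match in 2.32% and an E-box in 6.34%. Of CpG dinucleotides the SUZ12 window had 34, that of PCGF6 19 and that of EED 11, against a median of 11 over all windows. The motif matches are descriptions of letters, and no binding was measured here.

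Across the 10 groups, JARID2 and PCGF6 had the widest ranges among members and RNF2 the narrowest. The highest group mean was 4.19 times the lowest for JARID2, 3.78 times for PCGF6, 3.00 times for EZH1, 2.87 times for PCGF5, 2.33 times for EED and 2.12 times for SUZ12. It was 1.75 times for PCGF3, 1.74 times for EZH2 and 1.44 times for RNF2. Of 405 pairs of groups over the 9 measurable members, 305 (75.3%) had CPM ranges without overlap, against 70.0% of such pairs over all genes with at least 1 CPM in 3 libraries, so the members were not set apart by this count.

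**Figure D1:**
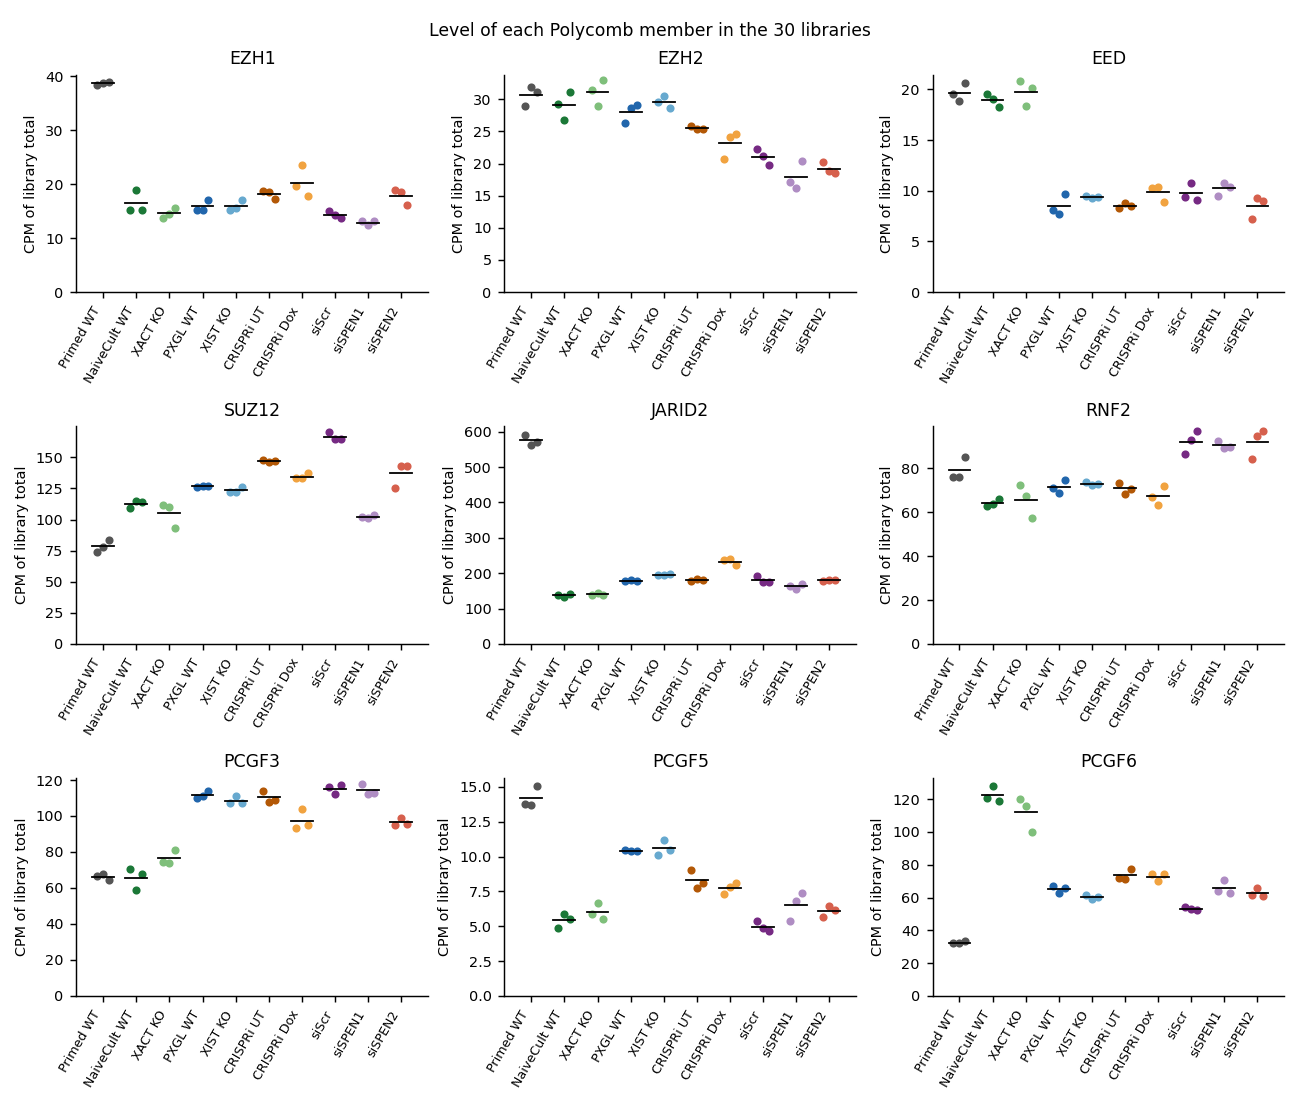
CPM of library total (y axis, from 0) for 9 members in each of the 10 groups (x axis); points are the 3 libraries of a group and bars their mean. JARID2, EZH1 and PCGF5 are highest in Primed WT, PCGF6 is highest in NaiveCult WT and lowest in Primed WT, and EED sits near 20 CPM in Primed WT, NaiveCult WT and XACT KO and near 9 CPM in the PXGL groups.

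RING1 could not be read. This PRC1 ubiquitin ligase had 0 to 10 counts per library and 84 counts over all 30 libraries, and it did not enter any fit. Its gene lies on chromosome 6 from 33208500 to 33212722 (plus strand, GRCh38). Its nearest protein-coding neighbours were also low, with a highest count of 0 for SLC39A7, 1 for RPS18 and COL11A2, 2 for B3GALT4, 3 for VPS52, 9 for HSD17B8, 29 for RXRB and 38 for WDR46. RPS18 encodes a ribosomal protein that every cell uses. Between positions 28000000 and 34000000 of that chromosome, 117 of 190 protein-coding genes (61.6%) never exceeded 10 counts, against 12.9% on the rest of chromosome 6 and 16.7% of all other protein-coding genes. A low RING1 value is therefore no measure of RING1 expression in these cells, and the cause was not tested. All statements on PRC1 ligases rest on RNF2.

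Compared per length of exons (GENCODE 44, all isoforms joined), JARID2 was the most abundant member in Primed WT, at 92.1 ± 2.38 CPM per kb. RNF2 followed at 20.3 ± 1.36, SUZ12 at 12 ± 0.761, PCGF6 at 10.8 ± 0.198 and PCGF3 at 9.65 ± 0.229 CPM per kb. EZH1 stood at 5.54 ± 0.046, EZH2 at 2.85 ± 0.14, EED at 2.82 ± 0.127 and PCGF5 at 1.71 ± 0.0912 CPM per kb. In NaiveCult WT PCGF6 was the most abundant at 40.9 ± 1.5 CPM per kb, ahead of JARID2 at 22 ± 0.553 CPM per kb. In PXGL WT JARID2 led again at 28.7 ± 0.317, ahead of PCGF6 at 21.7 ± 0.727 and SUZ12 at 19.3 ± 0.0742 CPM per kb, and PCGF5 and EED were lowest at 1.26 ± 0.01 and 1.21 ± 0.155 CPM per kb. Joined isoforms lengthen a gene with many of them, such as EZH2 (10774 bases), and so lower its value.

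The naive and primed states differed most, with the accessory subunit JARID2 and the methyltransferase EZH1 lower and the core subunit SUZ12 and the PRC1 subunit PCGF6 higher in naive cells of either medium. In NaiveCult WT against Primed WT 3 members were higher and 4 lower, where 42.5% of all 18663 tested genes were higher and 43.0% lower. In PXGL WT against Primed WT 3 were higher and 4 lower as well, against 43.1% and 44.4% of genes. Most genes passed in these comparisons, so that a pass by itself sets no member apart. With a log2 fold change above 1 or below -1 required too, 4 members remained in each, against 49.6% of genes in the NaiveCult comparison and 54.8% in the PXGL comparison. The same Primed WT libraries served as reference for both.

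JARID2 was at 592, 563 and 571 CPM in the 3 Primed WT libraries, at 138, 134 and 140 in NaiveCult WT and at 179, 181 and 177 in PXGL WT. No naive library, of any group, came above 240 CPM. Its log2 fold change was -1.91 (SE 0.043, adjusted p = 4.3e-14) in NaiveCult WT and -1.48 (SE 0.043, adjusted p = 3.9e-13) in PXGL WT, which is 3.77-fold and 2.78-fold lower. EZH1, the methyltransferase known for slowly dividing and differentiated cells, was at 38.4, 38.7 and 39 CPM in Primed WT, at 15.2, 19.0 and 15.3 in NaiveCult WT and at 15.2, 15.3 and 17.1 in PXGL WT. All naive libraries lay below all primed ones, with log2 fold changes of -1.07 (SE 0.09, adjusted p = 5.3e-08) and -1.08 (SE 0.089, adjusted p = 4.1e-08). EZH2, the enzyme of dividing cells, did not pass in either comparison. Its 3 libraries lay between 29 and 31.9 CPM in Primed WT, 26.8 and 31.1 in NaiveCult WT and 26.3 and 29.1 in PXGL WT, and the 95% interval of the log2 difference ran from -0.0747 to 0.225 and from -0.074 to 0.224. The EZH2 to EZH1 ratio per kb was accordingly 0.514 ± 0.0228 in Primed WT, 1.16 ± 0.217 in NaiveCult WT and 1.15 ± 0.0583 in PXGL WT. The size of this and later per-kb ratios depends on the joined exon lengths, which do not affect their change between groups.

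SUZ12 and EED, which sit in PRC2 side by side, did not move together. SUZ12 was at 73.8, 78.3 and 83.7 CPM in Primed WT, 109, 115 and 114 in NaiveCult WT and 126, 127 and 127 in PXGL WT. The groups did not overlap, and the log2 fold changes against Primed WT were 0.67 (SE 0.05, adjusted p = 1.5e-08) and 0.89 (SE 0.05, adjusted p = 5.7e-10). SUZ12 has a near-identical copy, SUZ12P1, whose reads were counted as a gene of its own and which rose too, from 17.1 ± 0.332 CPM to 24.3 ± 2.22 and 32.6 ± 1.96 CPM; reads may be split between the copies. EED was at 19.6, 18.9 and 20.6 CPM in Primed WT, at 19.6, 19.1 and 18.3 in NaiveCult WT and at 8.06, 7.68 and 9.72 in PXGL WT. Only PXGL WT stood apart, with a log2 fold change of -1.01 (SE 0.092, adjusted p = 1.3e-07) against Primed WT, while NaiveCult WT did not pass (log2 0.10, 95% interval -0.09 to 0.29). All 21 PXGL libraries lay at 7.25 to 10.8 CPM and all 9 libraries of Primed WT, NaiveCult WT and XACT KO at 18.3 to 20.8 CPM, a split that follows the identifier prefix as well as the PXGL medium.

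Among the PCGF subunits, PCGF6 rose and PCGF5 fell in naive cells. PCGF6 was at 32.4, 32.0 and 33.2 CPM in Primed WT, 121, 128 and 119 in NaiveCult WT and 67.1, 62.9 and 66.1 in PXGL WT. Its log2 fold change was 2.07 (SE 0.05, adjusted p = 8.6e-14), or 4.20-fold, in NaiveCult WT and 1.22 (SE 0.05, adjusted p = 1.6e-11), or 2.32-fold, in PXGL WT. PCGF5 was at 13.8, 13.7 and 15.1 CPM in Primed WT and at 4.85, 5.90 and 5.49 in NaiveCult WT, a log2 fold change of -1.24 (SE 0.10, adjusted p = 3.7e-08). In PXGL WT it was at 10.5, 10.4 and 10.4 CPM, a log2 fold change of -0.24 (SE 0.095, adjusted p = 0.031) that no longer passed without any 1 of the 3 PXGL WT libraries (adjusted p = 0.095 to 0.12) or without Primed WT replicate 3 (0.093). The PCGF6 to PCGF5 ratio per kb therefore went from 6.34 ± 0.223 in Primed WT to 63.0 ± 5.33 in NaiveCult WT and 17.3 ± 0.543 in PXGL WT. PCGF3, the close relative of PCGF5, was at 66.7, 67.7 and 64.6 CPM in Primed WT and 110, 111 and 114 in PXGL WT, with a log2 fold change of 0.96 (SE 0.059, adjusted p = 1.4e-09) and no overlap. In NaiveCult WT it was at 70.3, 58.7 and 67.8 CPM, which overlaps Primed WT. The fitted value there, 0.14 (SE 0.059, adjusted p = 0.043), rests on the TMM factors and was -0.02 (adjusted p = 0.82) when libraries were scaled by their totals alone.

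RNF2, the remaining PRC1 ligase, varied least, at 75.9 to 85.3 CPM in Primed WT, 62.7 to 66.1 in NaiveCult WT and 68.8 to 74.6 in PXGL WT. The fitted log2 fold change was -0.15 (SE 0.054, adjusted p = 0.019) in NaiveCult WT and 0.06 (SE 0.054, adjusted p = 0.29) in PXGL WT. The second turned to -0.15 (adjusted p = 0.026) with library totals alone, a scaling under which the median log2 fold change of all genes was -0.17 in the NaiveCult comparison and -0.24 in the PXGL comparison, against -0.01 and -0.03 with TMM factors, so the direction of RNF2 in PXGL WT depends on the scaling. The call in NaiveCult WT was lost without Primed WT replicate 3 (-0.10, adjusted p = 0.097) or NaiveCult WT replicate 1 (-0.13, adjusted p = 0.067).

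**Figure D2:**
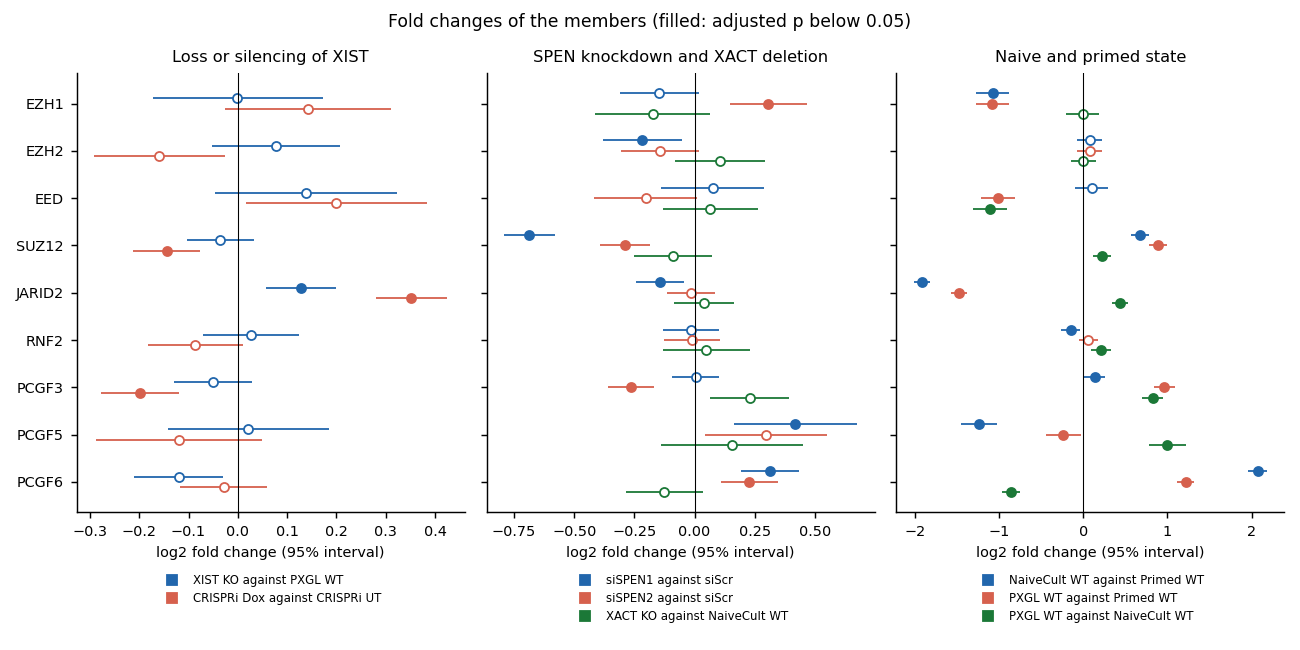
Log2 fold change (x axis) of 9 members (y axis) in 8 comparisons, one colour each, with 95% intervals; filled points have an adjusted p under 0.05. The axis spans differ between panels: the members lie between -1.91 and 2.07 in the comparisons of states, between -0.69 and 0.42 after SPEN knockdown or XACT deletion, and between -0.20 and 0.35 after loss or silencing of XIST.

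Between the naive media, 5 members were higher and 2 lower in PXGL WT than in NaiveCult WT, against 35.7% and 34.9% of genes. PCGF5 (log2 1.00, SE 0.10, adjusted p = 7.6e-07), PCGF3 (0.82, SE 0.059, adjusted p = 2.2e-08), JARID2 (0.44, SE 0.042, adjusted p = 4.9e-07), SUZ12 (0.22, SE 0.05, adjusted p = 0.0014) and RNF2 (0.21, SE 0.054, adjusted p = 0.003) were higher. EED (-1.11, SE 0.093, adjusted p = 1.2e-07) and PCGF6 (-0.86, SE 0.048, adjusted p = 1.9e-09) were lower. With a log2 fold change above 1 or below -1 required, PCGF5 and EED remained, against 27.4% of genes. EZH1 and EZH2 had differences of -0.01 (95% interval -0.20 to 0.19) and -0.00015 (-0.15 to 0.15). Of the partners of PCGF6 in its variant PRC1, MGA was at 531 to 534 CPM in NaiveCult WT and 317 to 334 in PXGL WT (log2 -0.66) and so moved with PCGF6, while MAX was at 47.6 to 55.9 and 71.0 to 73.5 CPM (log2 0.50) and moved the other way.

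**Figure D3:**
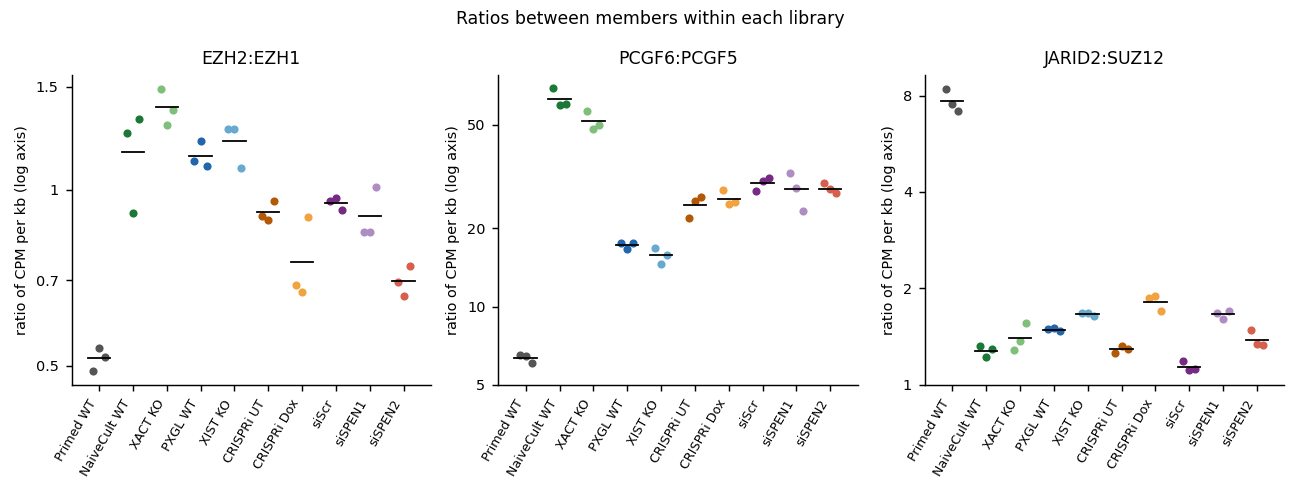
Ratio of CPM per kb between members within each library (y axis, log scale) for the 10 groups (x axis); points are libraries and bars group means. The joined exon lengths set the level of each ratio but not its change between groups. EZH2 to EZH1 lies at 0.490 to 0.535 in Primed WT and at 0.657 or more in every naive library, PCGF6 to PCGF5 reaches 59.9 to 69.2 in NaiveCult WT, and JARID2 to SUZ12 is 7.16 to 8.41 in Primed WT and at most 1.90 in naive libraries.

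Loss or silencing of XIST in PXGL cells went with higher JARID2 in both systems, and 1 of 9 tested members passed in XIST KO and 3 of 9 with doxycycline. XIST KO against PXGL WT gave 1 member higher and 0 lower, against 6.94% and 5.99% of 17286 tested genes. JARID2 was at 196, 195 and 197 CPM in XIST KO and at 179, 181 and 177 in PXGL WT, which do not overlap. PCGF6, which did not pass, did not overlap either (59.2 to 61.4 and 62.9 to 67.1 CPM), so this does not set JARID2 apart. The share of all genes without overlap in this pair was not computed. The log2 fold change of JARID2 was 0.13 (SE 0.034, adjusted p = 0.016), and it missed the threshold without PXGL WT replicate 1 (adjusted p = 0.062) or 3 (0.068) and without XIST KO replicate 1 (0.063) or 3 (0.073). The 3 XIST KO libraries are technical replicates of 1 clone. The spread behind this test was pooled over all libraries of the fit, the CRISPRi clones among them. With 1 clone, it covers no differences between XIST KO clones. The other 8 tested members had log2 fold changes of -0.12 (PCGF6, adjusted p = 0.073) to 0.14 (EED, adjusted p = 0.37). Beside these values, 6 trophoblast markers summed to 24.6 to 27.1 CPM in PXGL WT and 15.9 to 17.0 in XIST KO, 6 primed markers to 116 to 122 and 103 to 106 CPM, 7 naive markers to 2920 to 3070 and 2890 to 2960 CPM and 5 hypoblast markers to 25.6 to 27.8 and 26.3 to 28.1 CPM; their part in the change of JARID2 was not tested.

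With doxycycline in the CRISPRi clones 1 member was higher and 2 lower, against 20.7% and 18.9% of genes. JARID2 rose to 237, 240 and 222 CPM from 177, 184 and 181, a log2 fold change of 0.35 (SE 0.034, adjusted p = 8.3e-08), 1.28-fold. SUZ12 fell from 148, 146 and 147 CPM to 133, 133 and 137 (-0.14, SE 0.032, adjusted p = 0.0014), and PCGF3 from 114, 108 and 109 to 93.3, 104 and 94.8 (-0.20, SE 0.038, adjusted p = 0.0003). None of the 3 overlapped between treated and untreated clones, but EZH2 and EED did not overlap either, so this does not set the 3 apart. Pooled over all 45 pairs of groups, 70.0% of pairs did not overlap for genes with at least 1 CPM in 3 libraries. That share includes pairs across states and media, and the share for this pair alone was not computed. EZH2 went from 25.9, 25.4 and 25.4 CPM to 20.7, 24.2 and 24.6 (-0.16, SE 0.063, adjusted p = 0.053). EED went from 8.27, 8.77 and 8.47 CPM to 10.3, 10.4 and 8.86 (0.20, SE 0.088, adjusted p = 0.077). Neither passed after adjustment, although both 95% intervals excluded 0. Beside these, 7 naive marker genes summed to 2550 to 2700 CPM with doxycycline and 2890 to 2990 without, 6 primed markers to 105 to 113 and 100 to 104 CPM, 5 hypoblast markers to 30.2 to 37.4 and 22.3 to 24.5 CPM and 6 trophoblast markers to 19.7 to 25.8 and 15 to 15.7 CPM, and SPEN was lower by 0.31 (SE 0.067, adjusted p = 0.001); their part in the change of JARID2 was not tested, nor was that of doxycycline itself. CRISPRi Dox replicate 3 weighed on the count: without it 7 members passed, 3 higher and 4 lower. Over all genes 3568 of 17508 were higher and 3143 lower without it, against 3572 and 3275 of 17286 with it.

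The doxycycline effect exceeded the XIST KO effect for JARID2 by 0.22 on the log2 scale (SE 0.048, adjusted p = 0.0022), the only member to pass in this interaction test, where 21.8% of genes passed in either direction. The systems share no control libraries. PCGF3 (-0.15, adjusted p = 0.053) and EZH2 (-0.24, adjusted p = 0.064) lay just beyond the threshold. PCGF5, 1 of the subunits tied to XIST, differed by 0.02 (95% interval -0.14 to 0.18) in XIST KO and by -0.12 (-0.29 to 0.05) with doxycycline, and HNRNPK, the proposed bridge, by -0.02 and -0.09 without passing.

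SUZ12 and PCGF6 differed from siScr in the same direction with both siRNA mixes against SPEN, which share the siScr libraries. SPEN itself was lower by 1.01 (siSPEN1) and 1.08 (siSPEN2) on the log2 scale. With siSPEN1 2 members were higher and 3 lower, against 20.8% and 22.9% of 16448 genes, and with siSPEN2 2 were higher and 2 lower, against 20.5% and 20.7%. SUZ12 was at 169.8, 164.6 and 164.7 CPM in siScr, at 102.3, 101.1 and 104.5 in siSPEN1 and at 125, 143.1 and 142.8 in siSPEN2. All knockdown libraries lay below all controls, with log2 fold changes of -0.69 (SE 0.051, adjusted p = 6.4e-10) and -0.29 (SE 0.05, adjusted p = 7.8e-05). The copy SUZ12P1 did not fall with it. It was at 36.3 to 37.2 CPM in siScr, 41.1 to 44.6 in siSPEN1 (log2 0.23, adjusted p = 0.0025) and 37.7 to 40.1 in siSPEN2. PCGF6 rose from 54.1, 53.1 and 52.3 CPM to 63.8, 70.6 and 62.5 with siSPEN1 (0.31, SE 0.058, adjusted p = 0.00015) and to 61.3, 66 and 60.8 with siSPEN2 (0.23, SE 0.057, adjusted p = 0.0031). Among naive groups siScr had the highest means of SUZ12 (166 CPM), PCGF3 (115) and RNF2 (92.3) and the lowest of PCGF6 (53.2) and PCGF5 (4.94). Its range overlapped that of siSPEN1 for PCGF3, siSPEN2 for RNF2 and NaiveCult WT for PCGF5. In PXGL WT, which has another identifier prefix, SUZ12 was at 126 to 127 CPM and PCGF6 at 62.9 to 67.1 CPM. PCGF5 was at 10.4 to 10.5 and PCGF3 at 110 to 114 CPM there. The part of the control in these changes, or in those of other members below, was not tested.

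The other members passed with 1 mix only or with neither, which by itself does not show that the mixes differ. With siSPEN1, PCGF5 went from 5.35, 4.84 and 4.63 CPM to 5.38, 6.83 and 7.40 (0.42, SE 0.12, adjusted p = 0.0086), which did not pass without siSPEN1 replicate 3 (0.33, adjusted p = 0.06). With siSPEN2 its value was 0.295 (adjusted p = 0.058), and the mixes did not differ past the test (-0.12, adjusted p = 0.46). EZH2 (-0.22, SE 0.079, adjusted p = 0.03) and JARID2 (-0.14, SE 0.048, adjusted p = 0.02) were lower with siSPEN1. Both calls rested on single libraries: EZH2 was lost without siScr replicate 1 or 2 or siSPEN1 replicate 1 or 2 (adjusted p = 0.082 to 0.16), and JARID2 without siScr replicate 1 or siSPEN1 replicate 1 or 2 (0.057 to 0.13). For EZH2 the value with siSPEN2 was -0.14 (adjusted p = 0.15), and the difference between the mixes, 0.07, did not pass (adjusted p = 0.51). With siSPEN2, EZH1 rose from 15.1, 14.2 and 13.8 CPM to 18.9, 18.6 and 16.2 (0.31, SE 0.077, adjusted p = 0.003), and PCGF3 fell from 116, 112 and 117 to 94.8, 99.0 and 95.5 (-0.26, SE 0.046, adjusted p = 0.0001). RNF2 differed by -0.02 (95% interval -0.13 to 0.10) and -0.01 (-0.13 to 0.11). Beside these values, the 6 primed markers summed to 167 to 175 CPM in siScr, 81.6 to 86.7 in siSPEN1 and 109 to 116 in siSPEN2, and the 7 naive markers to 2800 to 2860, 3110 to 3270 and 2760 to 2920 CPM. In the same order, the 5 hypoblast markers summed to 49.6 to 52.8, 40.4 to 42.3 and 29.7 to 33.4 CPM and the 6 trophoblast markers to 20.2 to 27.1, 17.5 to 21.7 and 25.2 to 34.3 CPM; their part was not tested.

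The mixes were compared directly as well, and 3 members were higher and 2 lower in siSPEN2 than in siSPEN1, against 18.3% and 16.3% of genes. EZH1 (0.45, SE 0.078, adjusted p = 0.00011), SUZ12 (0.40, SE 0.05, adjusted p = 2.7e-06) and JARID2 (0.13, SE 0.048, adjusted p = 0.043) were higher. PCGF3 (-0.27, SE 0.046, adjusted p = 0.00011) and EED (-0.28, SE 0.10, adjusted p = 0.041) were lower. SPEN did not pass between the mixes (-0.07, 95% interval -0.23 to 0.09). The JARID2 call was lost without any 1 of 5 libraries, that is without each siSPEN2 replicate or siSPEN1 replicate 1 or 2, and that of EED without siSPEN1 replicate 2 or 3 or siSPEN2 replicate 1.

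XACT deletion in NaiveCult cells gave 0 members past the test in edgeR, where 0.206% of 16472 genes were higher and 0.219% lower. In DESeq2 it gave 0 members too, with 342 genes higher and 360 lower. At an unadjusted p under 0.05 there were 2992 genes in edgeR, PCGF3 among them. PCGF3 was at 74.2, 74.0 and 80.9 CPM in XACT KO and 70.3, 58.7 and 67.8 in NaiveCult WT (log2 0.23, SE 0.077, adjusted p = 0.14). The other members lay between -0.17 (EZH1, 95% interval -0.41 to 0.06) and 0.16 (PCGF5, -0.14 to 0.45), and differences inside such intervals were not detectable here. XACT itself was lower by 4.63 (SE 0.52, adjusted p = 0.0037).

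Around the members, 46 other Polycomb genes were followed as a list, 44 of them tested. PCGF2, an alternative PCGF subunit, and EPOP, a PRC2 accessory gene, were listed at 0 in all libraries. As for RING1, this is not read here as absence of expression, and the cause was not tested. In NaiveCult WT against Primed WT 21 were higher and 19 lower (median log2 0.03), and in PXGL WT 25 were higher and 14 lower (median 0.51), beside medians of -0.01 and -0.03 over all genes. The shares of all genes were 42.5% higher and 43.0% lower in NaiveCult WT and 43.1% and 44.4% in PXGL WT, and the counts that follow for smaller lists stand beside the same shares. The canonical PRC1 genes, whose CBX proteins read methylated lysine 27, moved in opposing ways: of 11, 3 were higher and 8 lower in each comparison. CBX8 (log2 3.17 and 2.18) and SCML1 (2.36 and 2.34) were among those higher. PHC1, a polymerising subunit, was at 405 to 421 CPM in Primed WT, 12.9 to 15.2 in NaiveCult WT and 30.7 to 32.7 in PXGL WT (-4.73 and -3.51). PHC2 (-1.35 and -4.10), SCMH1 (-2.31 and -1.90), CBX2 (-1.27 and -0.78), CBX6 (-1.68 and -0.28), CBX7 (-1.33 and -0.71), SCML2 (-1.07 and -0.26) and PHC3 (-0.37 and -0.53) were lower. BMI1, the PCGF4 subunit of canonical PRC1, was at 0.573 to 0.744 CPM in Primed WT, 6.27 to 7.78 in NaiveCult WT and 8.82 to 8.99 in PXGL WT (3.55 and 3.95), and PCGF1 was higher by 1.40 and 1.20. PCGF6 therefore rose beside other PCGF subunits, whereas PCGF5 fell.

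Of the 23 variant PRC1 genes, 13 were higher and 7 lower in NaiveCult WT against Primed WT, and 15 higher and 4 lower in PXGL WT. The PCGF3 and PCGF5 partners FBRS (1.66 and 4.16) and FBRSL1 (0.46 and 3.84) were higher in both and AUTS2 (-3.39 and -0.15) passed as lower in NaiveCult WT. Others past a log2 fold change of 1 in either were YAF2 (1.70 and 0.94), WDR5 (1.27 and 1.76), MAX (1.07 and 1.58), HDAC1 (1.06 and 1.21), TFDP1 (0.25 and 1.09), BCOR (0.05 and 2.04) and BCORL1 (-1.36 and 1.60). Of the 8 tested PRC2 accessory genes 3 were higher and 4 lower in NaiveCult WT, and 5 higher and 2 lower in PXGL WT. EZHIP, an inhibitor of PRC2, was the largest of these (1.92 and 3.29), at levels of at most 0.780 CPM in the wild-type groups. PHF1, also among the 8, was at most 0.374 CPM in the same groups. Among 7 genes that act against Polycomb, 4 were higher and 3 lower in each. The demethylase gene KDM6B was at 4.68 to 8.61 CPM in Primed WT, 8.88 to 10.4 in NaiveCult WT and 124 to 129 in PXGL WT (0.65 and 4.45), and ASXL2 (0.38 and 1.62) and BAP1 (0.23 and 1.03) were higher, while ASXL1 (-1.30 and -0.56) and ASXL3 (-1.25 and -2.95) were lower.

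Of the 44 tested genes of this wider list, 6 lie on the X chromosome, where XIST acts. In XIST KO 7 were higher and 2 lower (median 0.00), against 6.94% and 5.99% of all genes, and with doxycycline 11 were higher and 12 lower (median -0.02), against 20.7% and 18.9%. Of the 6 X-linked genes 5 were higher in XIST KO and 4 with doxycycline, and 0 were lower. Of all 540 X-linked protein-coding genes tested, 71.5% were higher in XIST KO and 69.1% with doxycycline, so these counts do not set the X-linked Polycomb genes apart. The X-linked RBBP7, a histone-binding PRC2 subunit, rose from 59.5 to 63.3 CPM in PXGL WT to 97.6 to 102 in XIST KO (0.71) and from 57.3 to 60.4 in CRISPRi UT to 88.1 to 96.9 in CRISPRi Dox (0.64). SCML1 (1.03 and 0.92), SCML2 (0.61 and 0.23) and BCORL1 (0.38 and 0.63) were higher in both, and EZHIP in XIST KO (1.46; 0.11 with doxycycline, not past the test). BCOR passed in neither. The X-linked demethylase gene KDM6A, counted with the genes that act against Polycomb and not among the 44, was lower with doxycycline (-0.31). Of autosomal genes, PHC2 rose with doxycycline from 1.09 to 1.17 CPM to 3.03 to 3.10 (1.45), and ASXL3, of the genes that act against Polycomb, was higher in XIST KO (1.52). Thus RBBP7, which binds SUZ12 within PRC2, rose while SUZ12 did not. With siSPEN1 17 of 44 were higher and 4 lower, and with siSPEN2 18 were higher and 8 lower, against 20.8% and 22.9% of all genes and 20.5% and 20.7%, respectively. Of the 6 X-linked genes 5 were higher with siSPEN1 and 6 with siSPEN2, beside 41.5% and 37.4% of 506 X-linked protein-coding genes. RBBP7 (0.47 and 0.37) and SCML2 (0.59 and 0.27) were again among those higher, with EZHIP (1.46 and 0.82), while PHF19, a PRC2 accessory gene on an autosome, was lower (-0.76 and -0.72). In XACT KO 0 of 43 passed in edgeR.

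The HOX genes, classical targets of both complexes, were nearly silent in primed cells and transcribed in every naive group. The 39 HOX genes summed to 8, 9 and 6 counts in the Primed WT libraries, 0.0914 to 0.178 CPM, and none had a mean of 1 CPM. They summed to 138 to 139 CPM in NaiveCult WT, with 22 genes at 1 CPM or more, and to 202 to 207 CPM in PXGL WT, with 24. HOXB2 was at 67.2 to 73.5 CPM in PXGL WT and had 1 count over the 3 Primed WT libraries. HOXB13 was at 10.5 to 11.2 CPM in PXGL WT with 0 counts in Primed WT, at least 608-fold higher when the primed group is set to a floor of 3 counts in all. In NaiveCult WT HOXB13 was at 10.5 to 11 CPM and HOXB7 at 8.99 to 10.6. The sum was 228 to 239 CPM in XIST KO, beside 235 to 237 CPM in CRISPRi UT and 256 to 270 CPM in siScr, so that it lay above PXGL WT, overlapped CRISPRi UT and lay below siScr. Against PXGL WT 13 HOX genes were higher and 0 lower of 36 tested in XIST KO, beside 6.94% and 5.99% of all genes, led by HOXA3 (1.38 to 1.89 CPM in PXGL WT, 3.08 to 3.73 in XIST KO), HOXC12 and HOXA4. With doxycycline 9 were higher and 7 lower, beside 20.7% and 18.9% of all genes, HOXC11 falling from 5.23 to 6.68 CPM to 1.06 to 1.79 and HOXC10 from 3.97 to 4.57 to 1.04 to 1.79. With siSPEN1 4 were higher and 8 lower, beside 20.8% and 22.9%, and with siSPEN2 1 and 6, beside 20.5% and 20.7%. HOXB1 (-1.34 and -1.13) and HOXA4 (1.20 and 1.04) were among the largest with both mixes. The HOX sum differed between states by a larger factor than any of the 9 measurable members, and HOX genes did not follow 1 direction under the perturbations.

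**Figure D4:**
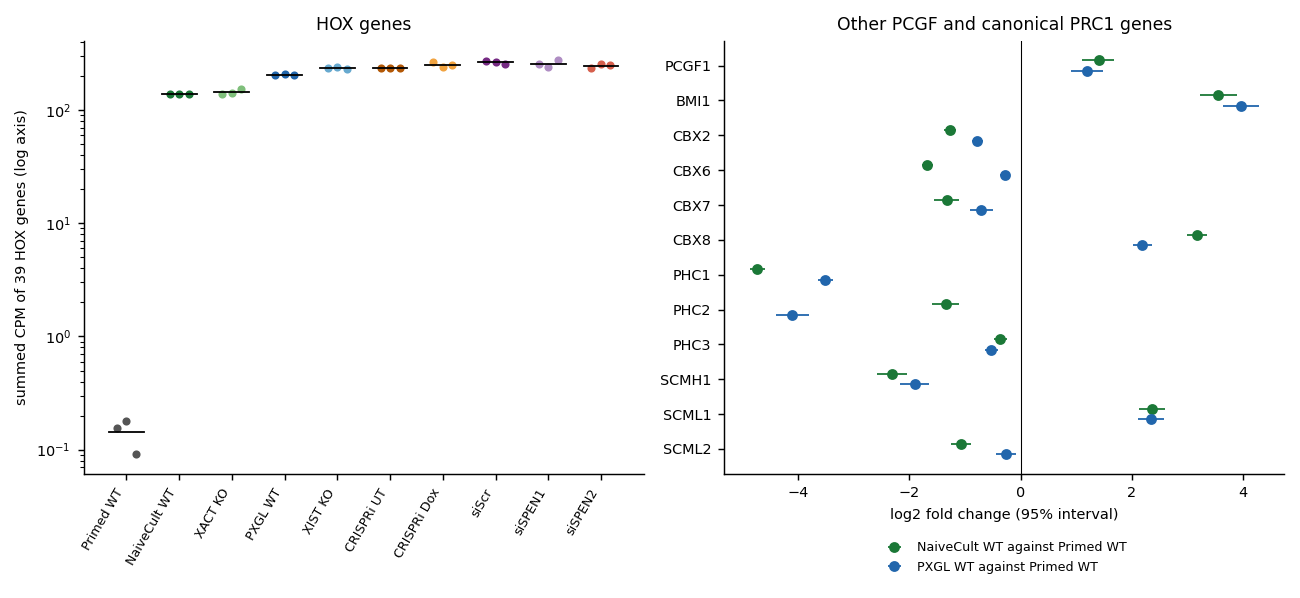
Left, summed CPM of 39 HOX genes per library (y axis, log scale) in the 10 groups, with bars at group means: Primed WT lies at 0.0914 to 0.178 CPM and every naive library at 138 CPM or more. Right, log2 fold change against Primed WT (x axis) with 95% intervals for 12 other PCGF and canonical PRC1 genes in NaiveCult WT and PXGL WT: BMI1, CBX8, SCML1 and PCGF1 lie to the right of 0 and PHC1, PHC2, SCMH1 and CBX2 to the left.

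Over the 10 group means, which share identifier prefixes and are dominated by the primed group, JARID2 and EZH1 ran together (Pearson r 0.931) and JARID2 and PCGF6 against each other (-0.829). Among the 9 naive groups alone these were 0.561 and -0.686. EED and PCGF3 ran in opposition with and without the primed group (-0.919 and -0.889). Of 14725 genes with a mean of at least 1 CPM, those whose pattern of mean log2(CPM + 1) over the groups was most like each member's were NT5DC1 and TXNDC16 for EZH1 (r 0.991 and 0.988), AKAP8L and SNORD4B for EZH2 (0.988 and 0.970) and OSTC and SF3B5 for EED (0.993 for both). They were FAM168B and LINC00674 for SUZ12 (0.972 and 0.951), BRINP1 and WSCD1 for JARID2 (0.997 for both) and EGR1 and CMTM3 for RNF2 (0.986 and 0.963). For the PCGF subunits they were OTUB1 and ZNF317 (PCGF3, 0.982 and 0.979), NUTM2A-AS1 and FAM86B3P (PCGF5, 0.964 for both) and COPG1 and LYPD5 (PCGF6, 0.986 and 0.983). No member was among the 2 genes most like another.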

How the data were processed

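Total RNA was sequenced as stranded, ribosomal RNA-depleted, paired-end libraries from 30 samples in 10 groups of 3. According to their methods the authors trimmed reads (Trim Galore 0.6.5), mapped them with Bowtie2 to the human and mouse genomes, removed duplicates (Picard 2.23.5), discarded feeder reads with XenofilteR and counted read pairs per gene by strand (HTSeq 0.13.5). The deposited values are raw read counts per gene, listed by symbol, with 1 table per library and replicates not pooled. Reads of near-identical or overlapping genes can be lost or split by such counting.

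Genes were kept by edgeR's filterByExpr (minimum count 10, minimum total count 15) and tested in edgeR 4.0.16 (R 4.3.3) with TMM factors and the quasi-likelihood test, in 4 fits: PXGL WT, XIST KO and both CRISPRi groups (17286 genes), the siRNA groups (16448), NaiveCult WT and XACT KO (16472), and the wild-type groups (18663). P-values were adjusted over all genes of a fit. Gene positions are from GENCODE 44 on GRCh38, and promoter sequence is from RefSeq. Named genes were all 10 members, other listed Polycomb genes that passed with a log2 change larger than 1 in size in any comparison or lie on the X chromosome, up to 3 HOX genes per comparison, and the 2 genes most like each member in pattern. Of these, 2 genes are not reported here by name, although counts and sums over their lists include them. SUZ12P1, PHF19, PHC3, MGA, HNRNPK, PCGF2, EPOP and PHF1 were named after their values were seen. Members and lists were chosen with earlier results of these data known. The first comparison of each fit was also run on simulated counts, and its outcome is not given here. The difference between the doxycycline and XIST KO effects was not simulated.

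Samples were grouped by their labels. The study calls its replicates biological, except for the 3 technical replicates of XIST KO. Beyond the 3 clones of the CRISPRi and XACT KO groups nothing says that they came from separate cultures, so p-values measure the spread between these libraries, which may be technical. Within each group, replicate pairs differed by more than sampling noise (mean chi-square per gene 2.15 or more), and none was counted as 1. Alternatives tried were DESeq2 1.42.0, RLE size factors, library totals without TMM factors, other filters, other sets of libraries, a replicate block and leaving out each library. Depth was 31.2 to 65.6 M (1000000) counts per library, and intervals cover only the spread within groups of 3 libraries, pooled over each fit.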

Additional observations from a re-analysis of the deposited data

Results flagged for a closer look

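In 3 kinds of contrast the tests gave members whose effects differed between groups by a test of the difference itself, each by edgeR's quasi-likelihood test with Benjamini-Hochberg adjustment. The doxycycline effect on JARID2 in the CRISPRi clones exceeded the XIST KO effect by 0.22 on the log2 scale (adjusted p = 0.0022). Between the SPEN siRNA mixes, EZH1 (0.45), SUZ12 (0.40) and JARID2 (0.13) were higher and EED (-0.28) and PCGF3 (-0.27) lower with siSPEN2 than with siSPEN1, on the log2 scale and with adjusted p from 2.7e-06 to 0.043. Against the same Primed WT libraries, PXGL WT and NaiveCult WT differed in PCGF5 (log2 1.00), PCGF3 (0.82), JARID2 (0.44), SUZ12 (0.22), RNF2 (0.21), PCGF6 (-0.86) and EED (-1.11), with adjusted p from 1.9e-09 to 0.003, and here medium and the prefix of the library identifiers cannot be told apart. Groups of 3 libraries were too small for a search for single outlying libraries.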

How the results depend on the processing

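Over 1215 alternative values of the 90 member fold changes, 1151 kept their side of the threshold, 39 lost the test, 23 gained it and 2 reversed. In 43 of the 1151, the direction changed with neither value past the test, and the rest of the 1151 kept their direction too. Both reversals came from scaling by library totals without TMM factors, an alternative chosen after seeing the data: PCGF3 in NaiveCult WT against Primed WT (-0.0156) and RNF2 in PXGL WT against Primed WT (-0.145). Requiring a log2 fold change above 1 or below -1 left 4 members in each comparison with Primed WT, 2 in PXGL WT against NaiveCult WT and 0 in all comparisons within a medium. For XIST KO against PXGL WT, fitting only the 6 libraries compared gave 2 members, the second being PCGF6 (-0.12, adjusted p = 0.0045), and leaving out 1 library gave 0 to 1. Calls rose over all genes too with only those 6 libraries. There 2248 of 16877 genes were higher and 2128 lower, against 1199 and 1036 of 17286 in the main fit. For CRISPRi Dox against CRISPRi UT leaving out 1 library gave 3 to 7, most without CRISPRi Dox replicate 3, and EZH2 passed under 6 alternatives (adjusted p = 0.017 to 0.048). Without that replicate 3568 of 17508 genes were higher and 3143 lower, against 3572 and 3275 of 17286 in the main fit. For the difference between the doxycycline and XIST KO effects, RLE size factors, no filter and a minimum of 1 CPM in 3 libraries gave 2 members each, DESeq2 gave 3, and leaving out 1 library gave 1 to 4, with 3 without CRISPRi Dox replicate 2 and 4 without replicate 3. Over all genes 2589 of 17495 were higher and 2530 lower without replicate 2, and 2089 and 1915 of 17508 without replicate 3. The main fit gave 2034 and 1737 of 17286. Leaving out 1 library gave 3 to 5 for siSPEN1 against siScr, 4 to 5 for siSPEN2 against siScr, 3 to 4 for siSPEN2 against siSPEN1, 5 to 7 for NaiveCult WT and 6 to 7 for PXGL WT against Primed WT, 7 for PXGL WT against NaiveCult WT and 0 for XACT KO. JARID2 between the siRNA mixes also missed the threshold with RLE size factors (0.051), without a filter (0.053) and with only the 6 libraries compared (0.056). The cause of these shifts was not tested. The pairs of groups without overlap numbered 307 with TMM-scaled levels.

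Deviations of same-numbered replicates from their group means had correlations from -0.07 to 0.08. Such low values cannot show that samples are unpaired, and CRISPRi UT and CRISPRi Dox were 3 clones left untreated or treated. The sample titles do not say whether equal numbers mark the same clone. Between the siRNA mixes, same-numbered values were 0.0764, 0.0307 and 0.0585, beside at most 0.00274, 0.0305 and -0.0221 for other numbers. With a replicate block the counts were 1, 3, 5, 4, 5, 0, 6, 7 and 7 members in the 9 comparisons, in the order in which the settings above name them from XIST KO, CRISPRi Dox, siSPEN1, siSPEN2, the 2 mixes and XACT KO to the 3 comparisons of states, and 1 for the difference between the XIST systems; the block changed 1 call, PCGF3 in NaiveCult WT against Primed WT (0.14, adjusted p = 0.061).

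PCGF5 (191 to 989 counts per library) and EED (297 to 1354) have the least depth among the tested members. RING1 could not be read at any depth reached here, and the cause was not tested.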
